A study of Homo sapiens with 6 samples.

Results

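Expression of 7 S100 genes was analysed in human B cells that were converted into induced macrophages (iMacs) with and without CTCF. The genes were S100A4, S100A6, S100A8, S100A9, S100A10, S100A11 and S100A12. They were chosen by name from the 30017 genes of the count table. All 7 passed the filter on low counts, as did 14758 genes in total. S100A6, S100A8, S100A9 and S100A12 had 0 counts before differentiation, so that they passed this filter only through their counts at 96 h.

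The libraries came from BLaER1-CTCF-mAID cells, a single subclone of a leukemic B cell line. Exogenous CEBPA, a myeloid transcription factor, drives the conversion of this line, and its CTCF protein is fused to an auxin-inducible degron, which all groups carried. The 0 h group was grown in medium without transdifferentiation factors and received no treatment. The 96 h control group was collected 96 h after the addition of 17β-estradiol, IL-3 and CSF-1, and the 96 h CTCF-depleted group received the auxin IAA, which triggers degradation of the tagged CTCF protein, together with these factors. Each of the 3 conditions had 2 biological replicates, and p-values measure only the spread between these libraries. IAA-treated cells without the degron were not analysed here, so that effects of IAA and of CTCF loss cannot be told apart.

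S100 proteins are small calcium-binding proteins that usually act as dimers. Calcium binding exposes a surface through which they bind target proteins inside the cell, and several members are also released and bind receptors on other cells. S100A8 and S100A9 form calprotectin, an abundant cytosolic complex of neutrophils and monocytes that sequesters metal ions and binds the receptor TLR4. S100A12 is a related secreted protein of myeloid cells that binds the receptor AGER. S100A4, S100A6, S100A10 and S100A11 are found in many cell types and bind cytoskeletal proteins and annexins.

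The total count was between 9273470 and 12718780 per library, and levels are given in CPM, counts per 1000000 of the TMM-scaled library size. CTCF mRNA was 231 and 214 CPM at 0 h, 181 and 174 CPM in the control libraries and 191 and 189 CPM in the CTCF-depleted libraries, with a log2 fold change of 0.10 (SE 0.05, adjusted p = 0.119, edgeR's quasi-likelihood test). Because the degron acts on the protein, this mRNA does not check the labels. The summed level of 8 B cell markers was 2883 to 2887 CPM at 0 h, 396 to 402 CPM in control cells and 353 to 369 CPM in CTCF-depleted cells. The summed level of 8 macrophage or monocyte markers was 35.3 to 39.0, 5004 to 5248 and 4861 to 4893 CPM in the same order, most of it LYZ at 96 h. Without LYZ, the other 7 summed to 34.9 to 38.7, 590 to 608 and 714 to 725 CPM. These genes did not move together upon CTCF depletion. ITGAM went from 120 and 136 CPM in control to 289 and 280 CPM in CTCF-depleted cells, a larger rise than that of the sum. It was called higher (log2 fold change 1.15, SE 0.06) and MRC1 lower (log2 fold change -1.33, SE 0.12). The other 6 of the 8 markers were called in neither direction. For the neutrophil markers, the groups are given in the same order. For 11 neutrophil markers, whose cells also make calprotectin, the sum was 1.44 to 2.03, 148 and 118 to 130 CPM. Of the 8 that could be tested, 8 were higher in control cells than at 0 h, compared with 25.4% of all genes tested. Among them, ELANE, MPO, AZU1, PRTN3, CAMP and CXCR2 had at most 3 counts in each 0 h library. These passed the filter on low counts only through their 96 h counts, so that they could not be called lower. In control cells, CAMP went from 0 to 232 and 207 counts and CSF3R from 7 and 8 to 783 and 804 counts. The other 3 of the 11 markers, FCGR3B, CEACAM8 and LTF, had at most 2 counts in any library and were not tested. The part of these markers in the results below was not tested. The 5 erythroid markers had 0 counts, 3 of 4 T cell markers at most 1 count and 4 of 6 keratinocyte markers 0 counts in every library. The other T cell marker, CD2, had 0 counts at 0 h, 40 and 38 in control and 54 and 55 in CTCF-depleted cells. Of the other keratinocyte markers, KRT10 had 152 to 218 counts per library and LOR at most 4.

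The genes lie within 1567 kb of chromosome 1, in a region that holds most human S100 genes (hg38, GENCODE release 44). S100A10 lies at chr1:151982915-151993859 and S100A11 at chr1:152032506-152047907, both on the minus strand. A gap of 1310 kb separates them from S100A9 (chr1:153357854-153361023, plus strand), S100A12 (chr1:153373711-153375621, minus strand) and S100A8 (chr1:153390032-153391073, minus strand), which together span 33.2 kb. S100A6 (chr1:153534599-153536244) and S100A4 (chr1:153543613-153550136) follow on the minus strand, 144 kb beyond S100A8. The S100A4 gene body overlaps S100A3 on the same strand (chr1:153547329-153549258), so that reads from shared sequence could have been assigned to either or left out. Near-identical pseudogene copies of S100A11 exist in the genome, and its counts are uncertain to the extent that reads were shared with them.

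The promoters were compared because these genes were higher together in iMacs. RefSeq windows from 250 bases before to 50 bases after the start (GRCh38.p14) were found for 7 of 7 genes. S100A8 had 3 windows in the table, of which the one at its GENCODE canonical start was used. The letters of a box bound by the general transcription machinery, TATAAA, or TTTATA when read on the other strand, occurred in the windows of S100A4, S100A8, S100A9 and S100A12 and in 11.5% of all 35116 promoter windows. The following stretches are written 5′ to 3′ on the strand of the gene with this box in capitals.
S100A9, chr1:153357814-153357843, plus strand: caggagctgccTATAAAtgccgagcctgca
S100A8, chr1:153391084-153391113, minus strand: agcctaaccgcTATAAAaaggagctgcctc
S100A12, chr1:153375611-153375640, minus strand: cctgaactgatTATAAAaccttccttggct
S100A4, chr1:153545819-153545848, minus strand: cctggctggggTATAAAtaggtcagacctc

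The box began 29 bases before the start in S100A8 and S100A9, 31 bases before it in S100A4 and 8 bases before it in S100A12. The windows of S100A6, S100A10 and S100A11 held no such letters and were richer in G and C, with 69.3%, 71.7% and 65.3% GC, compared with 50.3% in S100A12, 52.3% in S100A8, 55.7% in S100A9 and 60.7% in S100A4. A core of sites bound by the myeloid factor PU.1 (GAGGAA, or TTCCTC on the other strand) occurred in 27.9% of all windows and, among these genes, in S100A8 and S100A9. A C/EBP consensus (TTGCNNAA, or TTNNGCAA on the other strand), the motif of the factor family that drives the conversion, occurred in 10.5% of all windows and, among these genes, in S100A11 and S100A12. The PU.1 and C/EBP matches are shown with the matched letters in capitals, again on the strand of the gene.
S100A9, PU.1, chr1:153357635-153357664, plus strand: aaacaaccagcTTCCTCccaaaccagtttc
S100A8, PU.1, chr1:153391244-153391273, minus strand: cagcaaatgccTTCCTCtttccgcttctcc
S100A12, C/EBP, chr1:153375697-153375726, minus strand: tgaagcttctaTTGAGCAAcagagtacttt
S100A11, C/EBP, chr1:152037019-152037048, minus strand: ctgagtaaggcTTGGGCAAggctgggccgg

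The CTCF core consensus matched 0 of 7 windows and 1.41% of all windows. A match of letters is a description and does not show binding.

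To describe the S100 genes across the conversion, control cells at 96 h were first compared with cells at 0 h. All 7 genes were upregulated in iMacs. S100A9 and S100A8, the subunits of calprotectin, went from 0 counts to among the highest levels per length in the cell. S100A12 and S100A6 also went from 0 counts to a measurable level, whereas S100A4, S100A10 and S100A11 were already expressed in the B cells. With thresholds of 0.01 for the adjusted p and 0.6 for the absolute log2 fold change, 7 of 7 were called higher, compared with 25.4% of all genes tested. S100A6, S100A8, S100A9 and S100A12 passed the filter on low counts only through their 96 h counts, so that they could not be called lower. Among genes with at least 10 counts in every library, S100A4, S100A10 and S100A11 remained. In that set, 3 of 3 were called higher, compared with 2769 of 12146 genes. In bulk RNA, a larger share of cells that express a gene and more RNA per cell cannot be told apart.

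**Figure D1:**
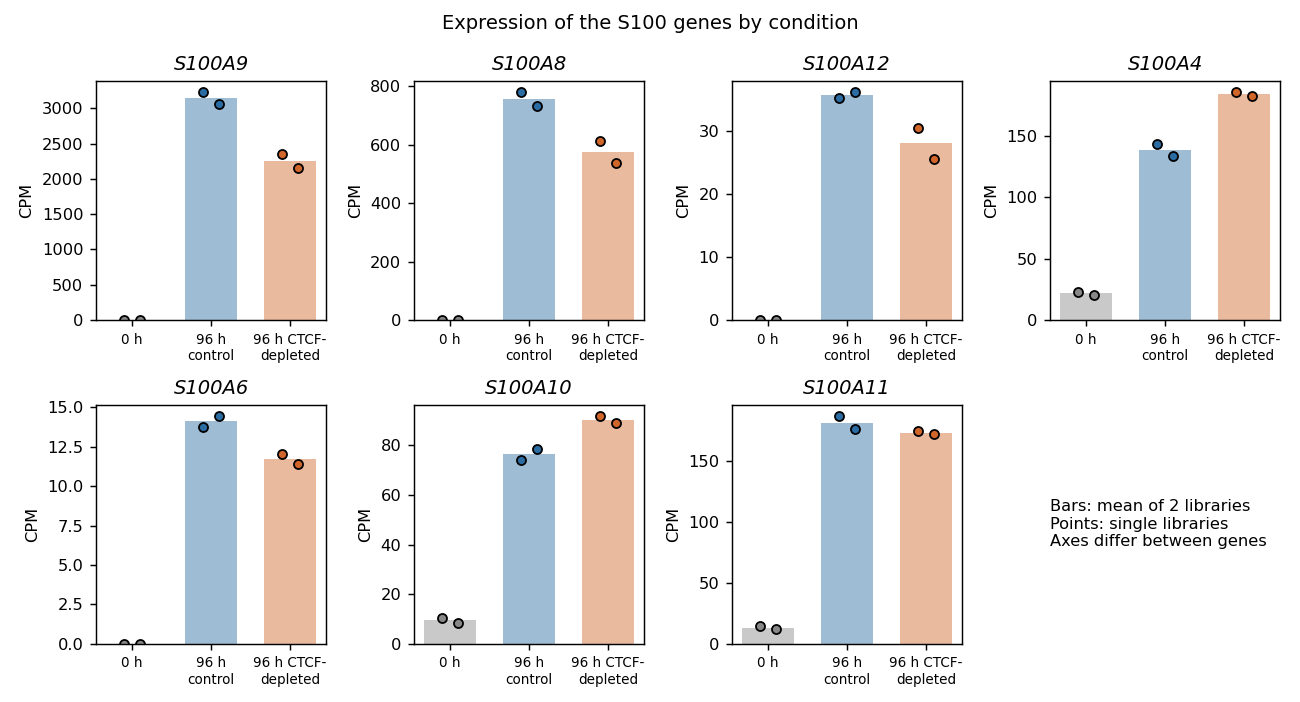
Expression of each S100 gene in CPM (vertical axis, with its own range for each gene) at 0 h, in 96 h control and in 96 h CTCF-depleted cells; bars are means of 2 libraries and points single libraries. S100A9, S100A8, S100A12 and S100A6 are at 0 at 0 h, and S100A4 and S100A10 are highest in CTCF-depleted cells.

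S100A9, the larger calprotectin subunit, had 0 counts in both 0 h libraries. At 96 h, its counts were 36547 and 32985 without and 25486 and 23333 with CTCF depletion. These counts correspond to 3226 and 3055 CPM in control and 2360 and 2149 CPM in CTCF-depleted cells. Every 96 h library stood far above the 0 h libraries, and both CTCF-depleted libraries were below both controls. Because no read was counted at 0 h, only a lower bound for the fold change can be given. With a floor of 3 counts per library, which corresponds to 0.309 and 0.225 CPM in the 0 h libraries, S100A9 was at least 11751-fold higher in control cells and at least 8437-fold higher in CTCF-depleted cells.

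S100A8, its partner, had 0 counts in both 0 h libraries and reached 778 and 734 CPM in control and 611 and 535 CPM in CTCF-depleted cells. As for S100A9, the groups did not overlap. It was at least 2829-fold higher in control cells and at least 2145-fold higher in CTCF-depleted cells than at 0 h. S100A12, which lies between them, reached 35.2 and 36.1 CPM in control and 30.5 and 25.6 CPM in CTCF-depleted cells from 0 counts at 0 h. These levels were at least 133-fold and at least 105-fold above 0 h.

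S100A6 binds annexins and CACYBP, a component of ubiquitin ligase complexes. It also had 0 counts at 0 h and was the least abundant of the genes at 96 h, with 156 counts in each control library and 130 and 124 counts after CTCF depletion. These counts correspond to 14.1 ± 0.480 and 11.7 ± 0.434 CPM (SD, n = 2). It was at least 52.8-fold higher in control cells and at least 43.9-fold higher in CTCF-depleted cells. Its neighbour S100A4, by contrast, was expressed in every library.

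S100A4 binds nonmuscle myosin heavy chain (MYH9) and is known for its role in cell motility. Its level was 22.8 and 20.6 CPM at 0 h, 143 and 134 CPM in control and 185 and 182 CPM in CTCF-depleted cells. The groups were ordered in this way without overlap. The log2 fold change from 0 h to control was 2.68 (SE 0.08, adjusted p = 5.00e-38, edgeR's quasi-likelihood test), a 6.39-fold difference.

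S100A10 forms a tetramer with annexin A2 at the plasma membrane. It was detected at 10.2 and 8.55 CPM at 0 h, 74.2 and 78.6 CPM in control and 91.9 and 89.1 CPM in CTCF-depleted cells, again without overlap. It was 8.15-fold higher in control cells (log2 fold change 3.04, SE 0.10, adjusted p = 1.44e-34, edgeR's quasi-likelihood test). S100A11, a partner of annexin A1, was detected at 14.5 and 11.9 CPM at 0 h, 187 and 176 CPM in control and 174 and 172 CPM in CTCF-depleted cells. Of the genes with reads at 0 h, S100A11 had the highest fold change, 13.8-fold (log2 fold change 3.80, SE 0.08, adjusted p = 4.88e-44, edgeR's quasi-likelihood test).

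The comparison of CTCF-depleted cells with cells at 0 h uses the same 0 h libraries. In it, 7 of 7 genes were again called higher, compared with 27.2% of all genes tested. Here too, the genes at 0 counts at 0 h passed the filter only through their 96 h counts and could not be called lower. S100A4 was 8.48-fold, S100A10 9.64-fold and S100A11 13.1-fold higher. The median log2 fold change over the genes, with those at 0 counts set to their lower bound, was 5.46 in CTCF-depleted cells and 5.72 in control cells, and the median over all genes tested was 0.02 in both comparisons.

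Levels were compared between genes as RPKM, the CPM per kilobase of the canonical transcript. In control cells, S100A9 reached 5480 ± 211 RPKM (SD, n = 2) and ranked 6 among 12607 genes with a length. The 5 genes above it, RN7SK, RPPH1, RN7SL1, RMRP and RN7SL2, are noncoding RNAs, so that S100A9 was the highest ranked protein-coding gene, above LYZ at rank 9. S100A8 followed at rank 14 with 1853 ± 77.6 RPKM, whereas the other S100 genes were lower by a wide margin.

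S100A11 and S100A4, with 322 ± 13.8 and 270 ± 12.9 RPKM (SD, n = 2), ranked 130 and 152 in control cells. S100A10 was at 114 ± 4.64, S100A12 at 73.5 ± 1.32 and S100A6 at 32.5 ± 1.11 RPKM. All neighbours in this order were separated by more than their spread. In CTCF-depleted cells, S100A9 stayed at rank 6 with 3935 ± 260 RPKM and S100A8 was at rank 21 with 1405 ± 131 RPKM. S100A4, with 358 ± 4.35 RPKM, stood above S100A11, with 308 ± 2.74 RPKM, so that the order of this pair was the opposite of that in control cells, and the libraries did not overlap in either condition.

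**Figure D2:**
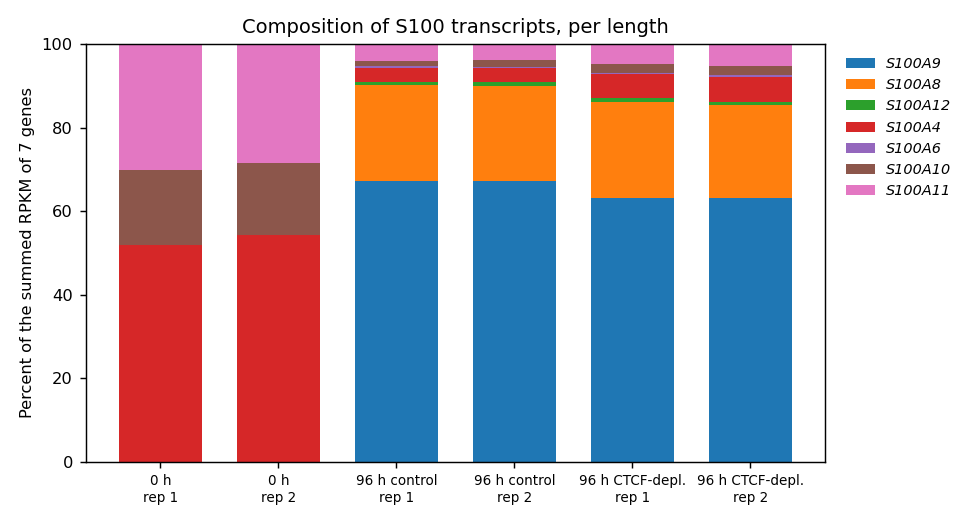
Share of each S100 gene in the summed RPKM of the 7 genes (vertical axis, percent) in each library (horizontal axis). S100A4, S100A11 and S100A10 make up the sum at 0 h, and S100A9 makes up 67.3% and 67.2% in control and 63.2% in both CTCF-depleted libraries.

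The composition of the S100 transcripts thereby changed during the conversion. At 0 h, S100A4 made up 52.0% and 54.2%, S100A11 30.2% and 28.5% and S100A10 17.8% and 17.3% of the summed RPKM. In control cells, S100A9 and S100A8 made up 67.3% and 67.2% and 22.8% and 22.7%, respectively. The share of S100A4 was 3.34% and 3.29% in control and 5.55% and 5.99% in CTCF-depleted cells. As a share of all counts, the 7 genes took 0.00497% and 0.00429% at 0 h, 0.432% and 0.405% in control and 0.340% and 0.315% in CTCF-depleted cells. For S100A9 alone, the shares were 0.312% (95% Wilson interval 0.309% to 0.316%) and 0.293% (0.290% to 0.296%) in control and 0.232% (0.229% to 0.235%) and 0.214% (0.211% to 0.217%) in CTCF-depleted cells. These intervals were computed within each library and cover counting error only, not the spread between libraries. Reads were amplified without molecular identifiers, so that even the counting error may be understated.

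To examine the S100 genes upon CTCF depletion, CTCF-depleted and control cells at 96 h were compared. No S100 gene passed both thresholds, compared with 12.4% of all genes tested. The differences that were measured were below the fold change threshold and went both ways: the calgranulins S100A9, S100A8 and S100A12 were lower, S100A4 and S100A10 were higher, and S100A6 and S100A11 were within their error. With the adjusted p below 0.01 alone, a threshold chosen after the data were seen, 5 of 7 genes passed, compared with 29.4% of all genes in either direction, of which 2 were higher and 3 lower. By DESeq2 with that threshold, 1 was higher and 2 were lower, compared with 19.1% of all genes in either direction. An unadjusted p below 0.05 in edgeR was found for 5 of 7 genes and for 45.6% of all genes. The CTCF-depleted libraries lay beyond both controls for 7 of 7 genes, 2 above and 5 below, but this was also the case for 67.9% of all genes.

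**Figure D3:**
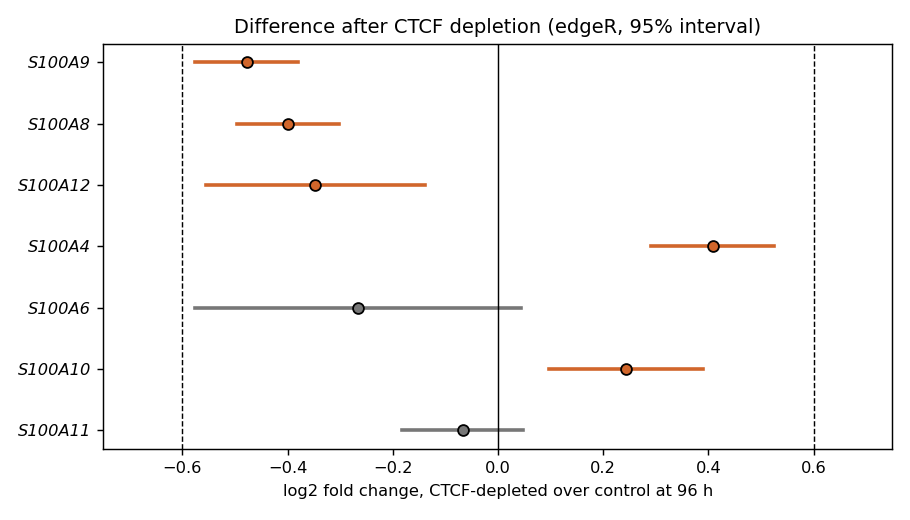
Log2 fold change of each S100 gene, CTCF-depleted over control at 96 h (horizontal axis; points are edgeR estimates and lines 95% intervals; dashed lines mark the threshold of 0.6). Orange marks an adjusted p below 0.01; S100A9 is lowest at -0.48 and S100A4 highest at 0.41.

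S100A9 in CTCF-depleted cells was at 0.718 times its control level (log2 fold change -0.48, SE 0.05, 95% interval -0.58 to -0.38, adjusted p = 4.90e-12, edgeR's quasi-likelihood test). S100A8 was at 0.758 times its control level (log2 fold change -0.40, SE 0.05, 95% interval -0.50 to -0.30, adjusted p = 6.52e-10). In this fit of all libraries, these intervals, which rest on the spread shared between genes, exclude both 0 and a decrease beyond the threshold of 0.6. By DESeq2, S100A9 was at -0.46 (SE 0.05, adjusted p = 1.90e-17). S100A8 was at -0.39 by DESeq2, with a wider SE of 0.10 (adjusted p = 0.00165). The levels thus differed by more than the spread between replicates, and both mRNAs remained far above the 0 h floor.

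S100A12 was at 0.786 times its control level (log2 fold change -0.35, SE 0.10, 95% interval -0.55 to -0.14, adjusted p = 0.00557, edgeR's quasi-likelihood test). Its 2 CTCF-depleted libraries, at 30.5 and 25.6 CPM, differed from each other more than the controls did, at 35.2 and 36.1 CPM. The adjusted p was 0.288 without CTCF-depleted replicate 2, 0.0820 without control replicate 2, 0.0489 without control replicate 1, 0.0117 without 0 h replicate 1 and 0.111 by DESeq2, so that it was above 0.01 without any of these libraries. The log2 fold change was -0.20 without CTCF-depleted replicate 2 and between -0.33 and -0.30 in the others of these settings. Across these and the other alternatives, the log2 fold change ranged from -0.44 to -0.20.

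S100A4 was at 1.33 times its control level (log2 fold change 0.41, SE 0.06, 95% interval 0.29 to 0.53, adjusted p = 5.20e-08, edgeR's quasi-likelihood test). S100A10 was at 1.18 times its control level (log2 fold change 0.24, SE 0.07, 95% interval 0.10 to 0.39, adjusted p = 0.00551). The difference of S100A10 had an adjusted p of 0.0493 without control replicate 1, 0.0107 without CTCF-depleted replicate 1 and 0.0376 by DESeq2, and of 9.08e-05 to 0.0493 over all alternatives. The intervals of S100A4 and S100A10 lay above 0 and those of S100A8, S100A9 and S100A12 below it.

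For S100A6, with 124 to 156 counts per 96 h library, the log2 fold change was -0.27 with an interval from -0.58 to 0.04 (adjusted p = 0.178, edgeR's quasi-likelihood test). At this depth, neither no difference nor a decrease close to that of S100A9 can be told apart from the estimate. For S100A11, with 1870 to 2119 counts, it was -0.07 with an interval from -0.18 to 0.05 (adjusted p = 0.388), and it turned to 0.01 without control replicate 1. The median over the 7 genes was -0.27, and the median over all genes tested was -0.03.

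The balance of the calprotectin subunits was examined in each library, because the proteins act as a complex. S100A9 had 4.14 and 4.16 counts per S100A8 count in control and 3.86 and 4.01 in CTCF-depleted cells. As RPKM, which accounts for the longer S100A9 transcript, the ratios were 2.95 and 2.96 in control and 2.75 and 2.86 in CTCF-depleted cells. Both CTCF-depleted ratios were below both control ratios. On the log2 scale, the ratio of S100A8 to S100A9 differed by 0.08 (SD 0.03 within groups). It was 0.05 without CTCF-depleted replicate 1 and 0.11 without CTCF-depleted replicate 2. No test was made, and an exact permutation test of 2 libraries against 2 cannot give a p below 0.333.

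Along the chromosome, the 3 calgranulin genes, which are adjacent within 33.2 kb, had log2 fold changes of -0.48, -0.35 and -0.40 upon CTCF depletion. Beyond them, S100A6 was at -0.27 and S100A4 at 0.41, although their start sites lie 9.81 kb apart. Of the pair on the other side of the gap, S100A10 was at 0.24 and S100A11 at -0.07. The sign of the estimate thus differed between S100 genes that lie near each other, although the estimates of S100A6 and S100A11 were within their error.

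Of 13 other S100 genes in the count table, 4 had enough counts to be tested, and 4 of 4 were higher in control cells than at 0 h, compared with 25.4% of all genes. At 0 h, S100A16 had 0 counts in both libraries and S100P 1 and 0 counts. Both passed the filter on low counts only through their 96 h counts, so that neither could be called lower. S100A13, which takes part in the release of proteins that lack a signal peptide, was at 14.4 and 14.1 CPM at 0 h, 29.4 and 29.9 CPM in control and 30.0 and 32.9 CPM in CTCF-depleted cells. Like the 7 genes, it did not pass the thresholds upon CTCF depletion. S100A1 and S100A16 were called lower, 2 of 4, compared with 7.03% of all genes called lower. The counts of S100A1 were 44 and 33 in control but 16 and 13 in CTCF-depleted cells (log2 fold change -1.37, SE 0.36, adjusted p = 0.00145, edgeR's quasi-likelihood test). Those of S100A16 were 22 and 26 in control but 9 and 8 in CTCF-depleted cells (log2 fold change -1.45, SE 0.45, adjusted p = 0.00760). Both were expressed at low levels, DESeq2 called 0 of the 4, and the S100A1 and S100A13 genes overlap on opposite strands, so that reads cannot be told apart unless strand was used in counting. For S100P, counts of 52 and 53 compared with 38 and 30 (log2 fold change -0.59, SE 0.28, adjusted p = 0.0847).

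S100A3, whose gene lies within that of S100A4, had 0 counts in the 0 h and control libraries and 11 and 8 counts after CTCF depletion. It was below the filter on low counts and was named after its values had been seen. Its level there was 1.02 and 0.737 CPM, in the libraries in which S100A4 was also highest. The remaining S100 genes, S100A2, S100A5, S100A7, S100A7A, S100A14, S100B, S100G and S100Z, had at most 9 counts in any library. The 7 genes for S100-fused type proteins of the epidermis, which lie between S100A11 and S100A9, had at most 5 counts in any library, and 0 of them could be tested. Of 32 annotated neighbours within 200 kb of the S100 genes, 8 were tested, and in control cells 3 were higher and 2 lower than at 0 h, compared with 25.4% and 22.9% of all genes. The 3 higher genes were S100A1, S100A13 and S100A16, which are counted above, and the 2 lower genes were TDRKH and ILF2. Upon CTCF depletion, 2 of the 8 neighbours were called lower and 0 were called higher, compared with 7.03% and 5.41% of all genes. The 2 lower genes were S100A1 and S100A16, which are also counted above, had low counts and were not called by DESeq2.

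**Figure D4:**
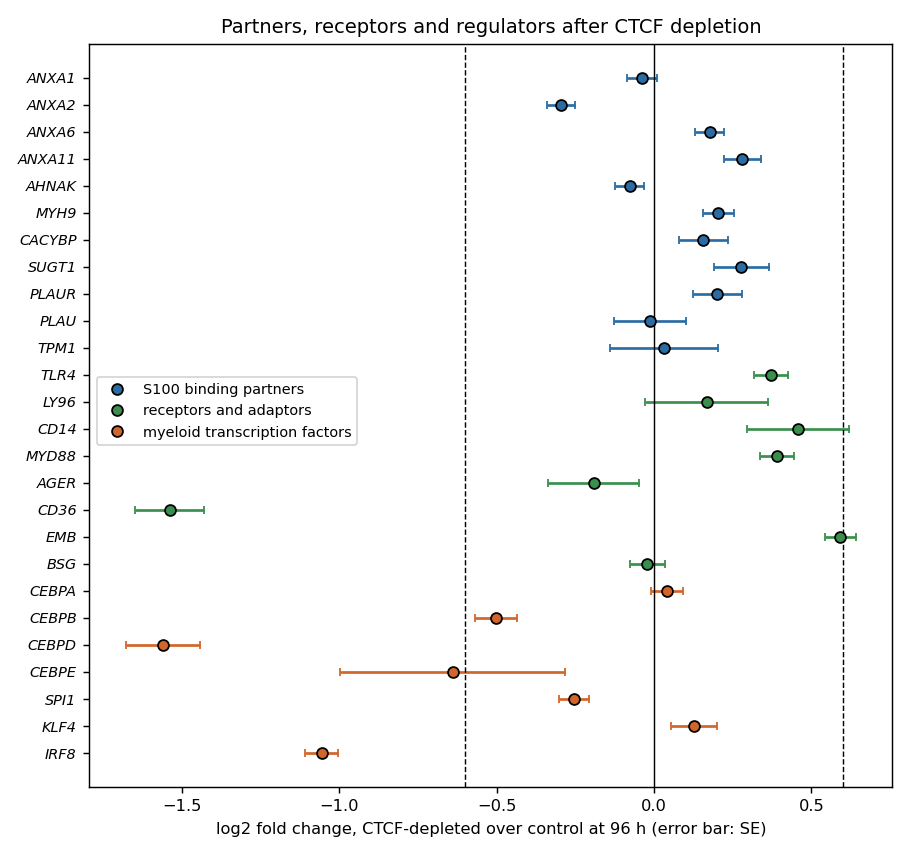
Log2 fold change of genes for S100 binding partners, receptors and myeloid transcription factors, CTCF-depleted over control at 96 h (horizontal axis; error bars, SE; dashed lines mark the threshold of 0.6). CEBPD, CD36 and IRF8 are the genes called lower by edgeR, and 0 of the genes plotted are called higher by it.

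The binding partners of the S100 proteins were examined next. Of 11 partners tested, 7 were higher and 2 lower in control cells than at 0 h, compared with 25.4% and 22.9% of all genes. ANXA2, the annexin that binds S100A10, went from 39.3 and 40.3 CPM to 596 and 598 CPM (log2 fold change 3.90, SE 0.06, adjusted p = 2.34e-52, edgeR's quasi-likelihood test), a larger change than that of S100A10. AHNAK, a giant scaffold protein that binds the complex of ANXA2 and S100A10, went from 3.40 and 2.85 CPM to 1780 and 1816 CPM. ANXA1, the partner of S100A11, had 0 counts at 0 h and 361 and 383 CPM in control cells. It passed the filter on low counts only through its 96 h counts, so that it could not be called lower. MYH9, the partner of S100A4, was also higher (log2 fold change 1.39, SE 0.05, adjusted p = 1.36e-32), as were ANXA6, PLAU and PLAUR. CACYBP, the partner of S100A6, fell by 1.38 on the log2 scale (SE 0.07, adjusted p = 9.06e-25), opposite to S100A6, and TPM1, a tropomyosin, fell by 0.62 (SE 0.16, adjusted p = 0.000462).

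Upon CTCF depletion, 0 of 11 partners passed both thresholds. ANXA2 was at 484 and 488 CPM, with a log2 fold change of -0.30 (SE 0.04, adjusted p = 1.07e-07, edgeR's quasi-likelihood test), whereas its partner S100A10 was at 0.24. For S100A4 and MYH9, both values were positive, with 0.20 for MYH9 (SE 0.05, adjusted p = 0.000526). ANXA1 was at -0.04 and AHNAK at -0.08, with adjusted p-values of 0.584 and 0.174.

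Of 8 genes listed as receptors and adaptors of S100A8, S100A9 and S100A12, 6 were higher and 1 lower in control cells than at 0 h. This compares with 25.4% and 22.9% of all genes. TLR4, which binds calprotectin, went from 13.7 and 15.4 CPM to 174 and 167 CPM (log2 fold change 3.54, SE 0.08, adjusted p = 1.01e-43, edgeR's quasi-likelihood test). Its co-receptors LY96 and CD14, the adaptor MYD88, the listed receptor EMB and the scavenger receptor CD36 were also higher. Whether EMB binds these ligands was not examined. BSG, an S100A9 receptor, fell by 0.69 on the log2 scale (SE 0.05, adjusted p = 1.73e-17, edgeR's quasi-likelihood test). CD36, a receptor for fatty acids carried by S100A8 and S100A9, had 0 counts at 0 h, and CD14 had 0 and 4 counts. Both passed the filter on low counts only through their 96 h counts, so that neither could be called lower.

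Upon CTCF depletion, 1 of 8 was called lower and 0 were called higher, compared with 7.03% and 5.41% of all genes. CD36 was at 45.5 and 49.0 CPM in control and 18.1 and 14.5 CPM in CTCF-depleted cells (log2 fold change -1.54, SE 0.11, adjusted p = 1.34e-17, edgeR's quasi-likelihood test). TLR4, at 222 and 219 CPM, and MYD88, at 213 and 202 CPM, were above control by less than the threshold, with log2 fold changes of 0.37 (SE 0.05, adjusted p = 8.88e-08) and 0.39 (SE 0.05, adjusted p = 2.73e-08). EMB was just below the threshold at 0.59 (SE 0.05, adjusted p = 2.86e-15) and was called higher by DESeq2, at 0.61. Receptor and ligand values thus went in opposite directions for TLR4 and calprotectin, and in the same direction for CD36 and calprotectin.

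Of 7 myeloid transcription factors, 6 were higher and 0 lower in control cells than at 0 h, compared with 25.4% and 22.9% of all genes. Among them, CEBPD had 1 and 3 counts at 0 h and passed the filter on low counts only through its 96 h counts. CEBPA, the factor that drives the conversion, was at 336 and 297 CPM at 0 h, 294 and 305 CPM in control and 326 and 290 CPM in CTCF-depleted cells, and these groups overlapped. The count table does not separate the exogenous from the endogenous transcript. Upon CTCF depletion, 2 of 7 were called lower and 0 higher, compared with 7.03% and 5.41% of all genes. CEBPD, a further member of the C/EBP family, was at 38.3 and 38.8 CPM in control and 13.7 and 12.4 CPM in CTCF-depleted cells (log2 fold change -1.56, SE 0.12, adjusted p = 9.70e-17, edgeR's quasi-likelihood test). IRF8, a regulator of monocyte development, was also lower (log2 fold change -1.06, SE 0.05, adjusted p = 5.13e-24). CEBPB was at -0.50 (SE 0.07, adjusted p = 5.41e-09) and SPI1, which encodes PU.1, at -0.25 (SE 0.05, adjusted p = 1.42e-05), both within the threshold. Whether any of these genes bears on the S100 levels was not tested.

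The genes with the most similar profiles were found as the 3 tested genes with the smallest Euclidean distance between centred log2 CPM values over the 6 libraries. For S100A9, these were LYZ, which encodes lysozyme, at a distance of 1.15, S100A8 at 2.33 and STAB1, a scavenger receptor of macrophages, at 2.85. For S100A8, they were STAB1 at 0.686, ANXA1 at 1.05 and LYZ at 1.33. S100A9 and S100A8 thus shared LYZ and STAB1. S100A12 was closest to RAPH1, RFX8 and SQRDL, with distances of 0.318 to 0.368, and S100A6 to MGAM, LYST and CSF3R, with 0.191 to 0.242. S100A4 was closest to IRGM, PGPEP1 and LPAR6, with 0.205 to 0.213, S100A10 to MOB3A, HPSE and FOSB, with 0.125 to 0.191, and S100A11 to FNBP1, ICAM4 and LAIR1, with 0.0984 to 0.162. No gene was among the closest 3 of any pair of S100A4, S100A6, S100A10, S100A11 and S100A12. The libraries are shared between all genes, and for genes at 0 counts at 0 h these distances depend on the prior count of 2.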

How the data were processed

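RNA-seq was measured in 6 libraries from total RNA depleted of ribosomal RNA. The counts were made by the authors and deposited without normalization: reads were aligned to hg38 with STAR 2.6.1d and counted per gene with featureCounts 2.0.6, over protein-coding exons according to the study's methods, although the table also lists genes of noncoding RNAs. The annotation release and the strand setting are not given in the sources used here. The alignment and counting were not repeated.

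Differential expression was tested with edgeR 4.0.16 (R 4.3.3), using filterByExpr, TMM and a quasi-likelihood fit of all 6 libraries with condition as the only term. P-values were adjusted over 14758 genes with the Benjamini-Hochberg method, and calls required an adjusted p below 0.01 and a log2 fold change beyond 0.6 in either direction, as in the study. Standard errors were derived from the F statistic. CPM used TMM-scaled library sizes, RPKM the length of the Ensembl canonical transcript in GENCODE release 44, and log2 CPM a prior count of 2. Where neither library of a group had over 3 counts, the fold change is given as a lower bound. Promoter letters came from RefSeq (GRCh38.p14), with both strands searched. Protein sequences were not analysed here. Tables and plots used Python 3.11.15, scipy 1.17.1, numpy 2.4.6, pandas 2.3.3 and matplotlib 3.10.9. The fit was tested on simulated data.

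The replicates of each group differed by more than sampling noise (chi-square per degree of freedom 2.76, 1.92 and 1.73 for 0 h, control and CTCF-depleted groups) and were used as separate samples. Replicate numbers were not treated as pairs, because the correlation of the replicate differences across genes was between -0.0294 and 0.0109. Groups of 2 are too small to look for outlying libraries. The alternatives were DESeq2 1.42.0, RLE or total-count scaling, a low-count filter that was dropped or raised to 10 in every library, a fit restricted to the 4 libraries compared, a replicate block, other thresholds, and leaving out each library in turn.

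1 listed transcription factor is not reported here and was left out of the list. The S100 genes and the lists of partners, receptors, factors and markers were chosen with earlier results of these data known. The naming rule took the 7 S100 genes and opened to naming list genes called in at least 1 comparison, tested genes within 200 kb and the 3 genes of most similar profile, of which not all are named. Genes beyond this rule (CTCF, S100A3, the untested S100 genes and the noncoding RNAs above S100A9) were named after their values were seen.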

Additional observations from a re-analysis of the deposited data

How the results depend on the processing

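Against 0 h, 7 of 7 S100 genes were called higher in control and in CTCF-depleted cells under every alternative run except a filter of at least 10 counts in every library, which left 3 genes, all called, in each comparison, since the 4 genes at 0 counts at 0 h could not be tested. Between CTCF-depleted and control cells, 0 were called in every alternative with the fold change threshold, and 5 (2 higher, 3 lower) at an adjusted p below 0.05 or, chosen after seeing the data, below 0.01 with no fold change threshold. Leaving out each library in turn gave 7, 0 and 7 calls in the 3 comparisons, lowest and highest alike. With the replicate number as a block, 7, 0 and 7 were called, and the block changed no call of these genes. Of 261 alternative values of single S100 genes, 260 kept their direction and their call by both thresholds together. The adjusted p alone crossed 0.01 in 10 of them, 7 of S100A12 and 3 of S100A10 between CTCF-depleted and control cells. The exception in direction was S100A11 between CTCF-depleted and control cells, at 0.0102 without control replicate 1 and -0.07 with all libraries (range -0.0792 to 0.0102 when 1 library was left out), and the cause was not tested. Over all alternatives, S100A9 lay between -0.51 and -0.38 on the log2 scale in this comparison, S100A8 between -0.46 and -0.28 and S100A4 between 0.39 and 0.49. Of the other S100 genes, DESeq2 called 0 between CTCF-depleted and control cells, in place of 2 lower, and without a filter 1 was called higher (S100A3) and 1 lower (S100A1) of 10. Without a filter, 5 of 10 were higher in CTCF-depleted cells than at 0 h, in place of 3 of 4. Of the partners, receptors and factors, DESeq2 called 1 higher (EMB) and 3 lower upon CTCF depletion, in place of 0 and 3. Scaling to total counts moved the median log2 fold change of all genes between control and 0 h from 0.02 to -0.10. Low counts limit what can be said of S100A1, S100A16, S100A3 and S100P.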
